A study of Mus musculus with 6 samples.

Results

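Adh7, Ptpn14, Procr, Plpp3, Col5a3 and Hal were near silent in control osteoclast cultures, at 15 to 81 counts per library. None of them was on a list of interferon-stimulated genes, and all were more than 10-fold higher after knockdown of Usp8. They make up 6 of 55291 gene symbols in the expression tables and 6 of 12440 genes that passed the filter on low counts. They were selected on the control and knockdown values described here, near silence in the former and the fold in the latter. Their levels and fold changes are therefore given as a description, without a test. The libraries came from Raw264.7, a mouse macrophage-like line that forms osteoclasts, the cells that resorb bone, under the cytokine RANKL. Both groups had been differentiated with RANKL (50 ng/mL, 4 days). A control hairpin (shCtrl, genotype label WT, n = 3) was compared with a hairpin against Usp8 (shUSP8, genotype label USP8 Knock Down, n = 3) to ask what the loss of this endosomal deubiquitinase changes in differentiating osteoclasts. The labels do not give the hairpin sequences, whether the lines were clones or pools, or whether replicates were separate cultures. Each p-value therefore reflects library-to-library spread alone, and that spread may be technical.

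The 6 genes act in unrelated places. Adh7 and Hal are enzymes of small-molecule metabolism: ADH7 is an alcohol dehydrogenase that oxidises retinol and ethanol and is best known from the lining of the upper digestive tract, and HAL is histidase, which converts histidine to urocanate and is best known from skin and liver. Ptpn14 and Plpp3 encode phosphatases of different substrates. PTPN14 is a non-receptor tyrosine phosphatase that binds the Hippo pathway co-activator YAP, and PLPP3 removes phosphate from lysophosphatidic acid and sphingosine 1-phosphate at the cell surface. Procr encodes the endothelial protein C receptor, which presents protein C for activation by thrombin and thrombomodulin, and Col5a3 encodes a chain of the fibrillar type V collagen.

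The sequence just before the start site is shown for the 4 genes with a searched motif of AP-1, the antioxidant response element or TEAD. These letters differ between genes that were higher in the same libraries. Sequences are from RefSeq (GRCm38.p6), run 5′ to 3′ on the strand of the gene and stop before the first annotated transcript base. Capitals mark TGANTCA (AP-1) in Adh7 and Hal, TGACNNNGC (antioxidant response element, overlapping an AP-1 match) in Procr, and the reverse complement of GGAATG (TEAD) in Ptpn14. The windows lie at chr3:138217523-138217759 for Adh7, chr2:155750967-155751116 for Procr, chr10:93488518-93488767 for Hal and chr1:189728018-189728267 for Ptpn14, all on the plus strand.
Adh7: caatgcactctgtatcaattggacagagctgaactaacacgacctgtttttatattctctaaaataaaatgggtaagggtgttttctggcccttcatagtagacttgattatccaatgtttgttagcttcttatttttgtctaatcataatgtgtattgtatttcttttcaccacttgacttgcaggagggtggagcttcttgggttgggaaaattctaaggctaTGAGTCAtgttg
Procr: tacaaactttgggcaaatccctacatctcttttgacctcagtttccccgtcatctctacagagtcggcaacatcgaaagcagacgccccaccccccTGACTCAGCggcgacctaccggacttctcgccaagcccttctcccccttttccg
Hal: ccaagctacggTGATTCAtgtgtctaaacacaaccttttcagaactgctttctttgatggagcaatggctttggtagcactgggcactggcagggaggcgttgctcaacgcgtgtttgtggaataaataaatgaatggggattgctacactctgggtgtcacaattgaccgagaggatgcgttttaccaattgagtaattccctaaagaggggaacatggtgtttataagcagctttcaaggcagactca
Ptpn14: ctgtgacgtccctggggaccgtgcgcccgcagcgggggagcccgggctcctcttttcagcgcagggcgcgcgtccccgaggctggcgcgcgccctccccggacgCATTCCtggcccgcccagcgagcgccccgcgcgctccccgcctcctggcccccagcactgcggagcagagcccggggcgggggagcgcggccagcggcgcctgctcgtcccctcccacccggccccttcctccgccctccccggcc

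Motifs were searched on both strands in the 300 bases from 250 before to 50 after each start site. Of 32544 such RefSeq windows, 7.79% held TGANTCA, which was present in Adh7, Procr and Hal and absent from the windows of the other 3 genes. TGACNNNGC was in 12.4% of all windows and, among the 6, in Procr alone. GGAATG was in 14.6% of all windows and, among the 6, in Ptpn14 alone. The Ptpn14 window also held GAGGAA (ETS, 28.1% of windows), and those of Adh7 and Hal held TATAAA (13.6%), each on the minus strand. No window of the 6 genes held GAAANNGAA (interferon-stimulated response element, 8.53% of windows), TTCNNNGAA (interferon gamma activated site, 8.33%), TGACGTCA (cyclic AMP response element, 1.8%), CACGTG (E-box, 7.17%) or the NF-kB consensus (8.49%). Base composition ranged from 39.3% G and C in Adh7 to 78.3% in Ptpn14, against a median of 53.0% over all windows. No searched motif was thus common to all 6 windows, although 3 of them held TGANTCA and 2 held TATAAA, and base composition differed widely. A match describes letters only.

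The hairpin target was checked before the 6 genes. Usp8 had 2785, 2561 and 2645 expected counts in shCtrl and 656, 720 and 718 in shUSP8. Its log2 fold change was -2.00 (SE 0.06, edgeR adjusted p = 1.47e-10), and the groups did not overlap. Libraries held 19973522 to 20213939 expected counts in total. All 8 macrophage markers and all 10 osteoclast markers on fixed lists were expressed. Summed macrophage markers lay at 4810 to 5000 CPM (expected counts scaled to a common library size) in shCtrl and 5940 to 6500 CPM in shUSP8, and summed osteoclast markers at 13500 to 13900 CPM and 11200 to 11600 CPM. Macrophage markers did not move together: Lyz2 rose from 853 to 2700 CPM and carried the sum, and Adgre1, Itgam, Fcgr1 and Mertk were also called higher by edgeR. Csf1r (1380 to 1210 CPM), Cd68 (1840 to 1430 CPM) and Spi1 (668 to 559 CPM) were called lower, but none of these 3 calls held on the TPM scales (limma adjusted p = 0.349, 0.0524 and 0.406 on log2(TPM + 1)). That of Csf1r was also lost with a replicate block (edgeR adjusted p = 0.0562) and without the first (0.0561) or the second (0.0528) shCtrl or the third shUSP8 library (0.0706). The part of these shifts in the levels of the 6 genes was not tested. In bulk RNA, fewer cells of a type and less RNA per cell cannot be told apart.

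Among the metabolic enzymes, Adh7 was counted 31, 15 and 19 times in the 3 shCtrl libraries and 608, 670 and 621 times in the 3 shUSP8 libraries. Mean level was 1.10 ± 0.419 CPM (SD, n = 3) in shCtrl and 30.8 ± 1.39 CPM (SD, n = 3) in shUSP8, a 27.9-fold difference. Every shUSP8 library lay far above every shCtrl library, by 18.9-fold for the closest pair of libraries and 42.7-fold for the most distant pair. The wide range comes from the controls, in which the first library was above the other two. Hal was counted 64, 74 and 81 times in shCtrl and 1182, 1200 and 1125 times in shUSP8. Its level was 3.72 ± 0.473 CPM (SD, n = 3) against 56.8 ± 1.66 CPM (SD, n = 3), 15.3-fold higher. Hal had the highest CPM of the 6 genes in both groups, and its 3 knockdown libraries lay close together.

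Of the phosphatases, Ptpn14 had 24, 15 and 15 counts in shCtrl and 475, 494 and 490 in shUSP8. It was the lowest of the 6 genes in CPM in both groups, at 0.916 ± 0.259 CPM (SD, n = 3) and 23.7 ± 0.409 CPM (SD, n = 3), a 25.8-fold difference. Its 3 knockdown libraries were nearly equal, whereas a few counts separated the controls. Plpp3 had 51, 63 and 58 counts in shCtrl and 696, 722 and 724 in shUSP8. Its level was 2.92 ± 0.308 CPM (SD, n = 3) against 34.7 ± 0.703 CPM (SD, n = 3), 11.9-fold higher and the smallest fold among the 6 genes. Both phosphatase genes were separated between groups in every library.

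The receptor gene Procr had 32, 47 and 46 counts in shCtrl and 820, 690 and 777 in shUSP8. Mean level was 2.12 ± 0.436 CPM (SD, n = 3) against 37.1 ± 3.44 CPM (SD, n = 3), a 17.5-fold difference. Its knockdown libraries had the largest SD in CPM of the 6 genes, with the second library lowest. Col5a3, the collagen gene, had 66, 64 and 57 counts in shCtrl and 788, 910 and 806 in shUSP8. Its level was 3.17 ± 0.205 CPM (SD, n = 3) against 40.6 ± 2.93 CPM (SD, n = 3), 12.8-fold higher. Here the second knockdown library was highest, the opposite of Procr, so no knockdown library was high for every gene.

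**Figure D1:**
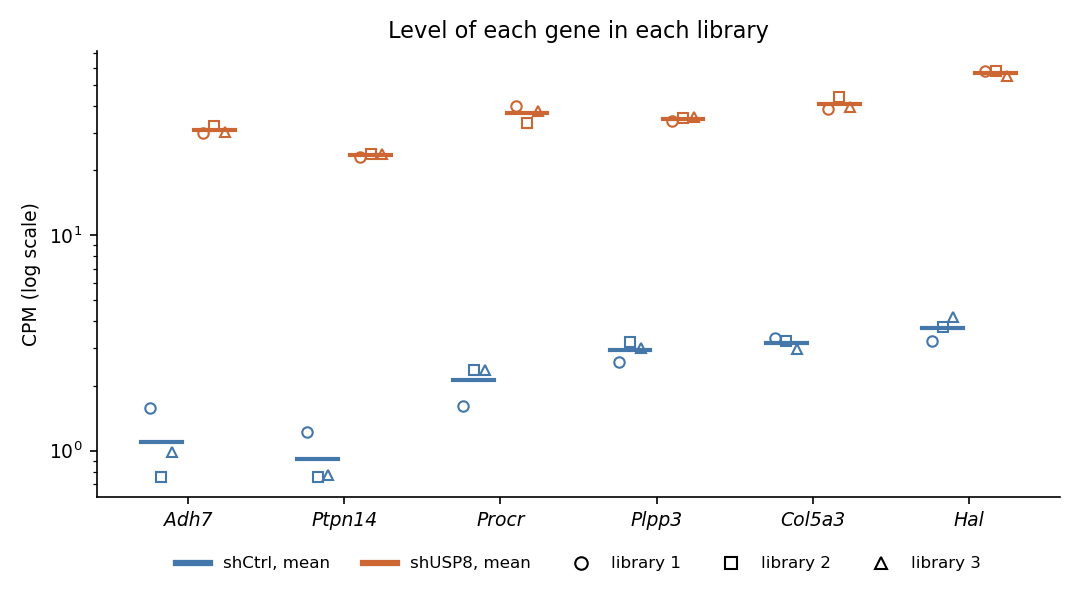
Level of each of the 6 genes in CPM on a log axis, with 1 point per library and a bar at each group mean (shCtrl and shUSP8, n = 3 each). In every gene all shUSP8 points lie above all shCtrl points, with mean folds from 11.9 in Plpp3 to 27.9 in Adh7.

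Summed over the 6 genes, the level was 14.0 ± 0.354 CPM (SD, n = 3) in shCtrl and 224 ± 2.25 CPM (SD, n = 3) in shUSP8, 16.0-fold higher. The groups did not overlap in any of the 6 genes, which the choice of genes made likely in advance. For comparison, 24.6% of all tested genes had every shUSP8 library above every shCtrl library. At an edgeR adjusted p under 0.05, 32.8% of tested genes were called, 17.8% higher and 14.9% lower. Each of the 6 genes had at least 15 counts in each shCtrl library and would have passed the count filter on the controls alone. Leaving out the first shUSP8 library (the one that stood apart in liver transcripts), the fitted log2 fold changes were 4.82 for Adh7, 4.69 for Ptpn14, 4.07 for Procr, 3.58 for Plpp3, 3.71 for Col5a3 and 3.92 for Hal. With all libraries they were 4.79 (SE 0.15), 4.68 (SE 0.14), 4.12 (SE 0.13), 3.57 (SE 0.09), 3.67 (SE 0.09) and 3.93 (SE 0.09) in the same order.

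Levels of different genes were compared in TPM, an abundance that takes transcript length into account. In shUSP8, Procr was the most abundant of the 6 at 41.0 ± 4.77 TPM (SD, n = 3), with 43.31, 35.48 and 44.11 TPM in the 3 libraries. Hal followed at 25.2 ± 0.974 TPM, then Plpp3 at 14.8 ± 0.735 TPM and Adh7 at 12.5 ± 0.417 TPM (SD, n = 3 each). Col5a3 at 8.53 ± 0.537 TPM and Ptpn14 at 3.55 ± 0.11 TPM (SD, n = 3 each) closed the order. No libraries of neighbours in this order overlapped. Order was less sharp in shCtrl, where Procr had 2.36 ± 0.906 TPM, Hal 1.60 ± 0.509 TPM and Plpp3 1.14 ± 0.105 TPM (SD, n = 3 each). Libraries of Procr and Hal overlapped there, as did those of Hal and Plpp3. Col5a3 at 0.613 ± 0.0503 TPM and Adh7 at 0.503 ± 0.0666 TPM (SD, n = 3 each) also overlapped, and Ptpn14 was lowest at 0.23 ± 0.0854 TPM (SD, n = 3).

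Set against all tested genes, the 6 moved up the TPM ranking by different distances. In shCtrl, 80.8% of tested genes had a higher mean TPM than Procr, and 97.9% had a higher mean TPM than Ptpn14. In shUSP8 these shares were 25.4% for Procr and 78.1% for Ptpn14. Hal went from 84.8% to 36.9%, Plpp3 from 88.1% to 50.9%, Adh7 from 94.0% to 55.0% and Col5a3 from 92.7% to 63.7%. Even after knockdown, Ptpn14, Col5a3, Adh7 and, narrowly, Plpp3 thus remained below most tested genes in TPM.

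Folds of mean TPM were 24.9 for Adh7, 17.3 for Procr, 15.7 for Hal, 13.9 for Col5a3, 13 for Plpp3 and 15.4 for Ptpn14. Ptpn14 was the gene whose fold depended most on the scale, from 25.8 in CPM to 15.4 in TPM. The mean transcript length assigned to Ptpn14 was 4663, 4166 and 5857 nt in shCtrl and 8401, 8207 and 8569 nt in shUSP8. These ranges did not overlap, so a larger part of its assigned abundance lay on long transcripts in the knockdown. Its annotated transcripts include a full-length coding form of 10746 nt. In shCtrl this length rests on 15 to 24 counts per library. With effective length entered as an offset, the Ptpn14 log2 fold change was 3.85 in place of 4.68.

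The other genes kept a similar assigned length. Plpp3, with a single annotated transcript of 3159 nt, lay at 3152 to 3159 nt in shCtrl and at 3159 nt in shUSP8. Col5a3 lay at 5957 to 6152 nt and 6048 to 6120 nt, Hal at 2374 to 3431 nt and 2982 to 3188 nt, and Procr at 1122 to 1599 nt and 1388 to 1460 nt. Adh7 lay at 2150 to 3412 nt and 3185 to 3433 nt. Ranges of the groups overlapped in these 5 genes. Estimated mean fragment length was 291.5 to 309.7 nt in 5 libraries and 368.6 nt in the second shUSP8 library, in which Procr was lowest and Adh7, Ptpn14, Col5a3 and Hal were highest in counts within the group. Its part in those values was not tested.

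Markers of cell types in which these genes are best known were examined beside them. Epithelial markers, the background for Adh7, were under 10 counts in every library in 14 of 14 genes, and 8 of them, including Krt14, Krt19, Krt1, Krt10, Cldn4, Cldn7 and Esrp1, were at 0 throughout. Their sum was 0.0505 to 0.304 CPM in shCtrl and 0.0488 to 0.439 CPM in shUSP8. Endothelial markers, the background for Procr and Plpp3, were under 10 counts in every library in 10 of 14 genes, with Cldn5 and Sox17 at 0. Their sum was 31.7 to 35.1 CPM in shCtrl and 27.0 to 32.9 CPM in shUSP8, and its main genes moved in opposite directions. Vwf fell from 26.8 to 13.9 CPM (log2 fold change -0.95, edgeR adjusted p = 1.94e-06), and Flt1 rose from 5.71 to 13.9 CPM (edgeR adjusted p = 1.61e-05). Their part in the levels of Procr and Plpp3 was not tested. Stromal markers, the background for Col5a3, were under 10 counts in every library in 7 of 14 genes, with Lum at 0. They summed to 6.94 to 17.9 CPM in shCtrl and 8.74 to 9.18 CPM in shUSP8. The highest stromal sum was in the third shCtrl library, with 116 counts of Col1a1 and 51 of Col3a1, and Col5a3 was lowest there. Dcn, with 5, 0 and 3 counts in shCtrl and 29, 15 and 9 in shUSP8, and Pdgfra, with 0, 1 and 4 and then 12, 7 and 7, were higher in shUSP8 as Col5a3 was. Mean levels of Col1a1 (2.79 to 0.454 CPM), Col1a2 (0.957 to 0.454 CPM) and Col3a1 (1.15 to 0.276 CPM) went the other way. Of the 4 tested stromal markers 0 were called in either direction by edgeR, with a median log2 fold change of -0.46. The part of stromal transcripts in the Col5a3 level was not tested.

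Liver markers, the background for Hal, were present at low levels in all 10 listed genes. Their sum was 8.13 to 15.6 CPM in shCtrl, and 63.1, 5.07 and 5.71 CPM in the 3 shUSP8 libraries. The first shUSP8 library, with 721 counts of Alb, therefore stood apart. Its Hal count of 1182 lay between the 1200 and 1125 of the other two, and the part of liver transcripts in the Hal level was not tested. Adh1, a relative of Adh7 that liver also expresses, had 27 counts in this library and 2 in each of the other shUSP8 libraries.

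Each gene was then set beside its closest relatives, with GENCODE M21 positions on GRCm38. Adh7 (chr3:138217760-138233382, plus strand) lies in a cluster of alcohol dehydrogenase genes. Adh5, the glutathione-dependent formaldehyde dehydrogenase of the same cluster, averaged 80.7 ± 1.2 CPM with the control hairpin and 82.5 ± 5.72 CPM with the Usp8 hairpin (SD, n = 3 each). Its log2 fold change was 0.03 (SE 0.06, edgeR adjusted p = 0.712), and it was called under none of 15 alternatives. Adh1 and Adh4 had no more than 6 counts in any library apart from the 27 Adh1 counts above, and Adh6a and Adh6b were at 0. The share of Adh7 in the summed TPM of these 6 genes was 0.713% ± 0.062 in shCtrl and 13.8% ± 0.844 in shUSP8 (SD, n = 3 each).

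Plpp3 (chr4:105157347-105232764, plus strand), which was chosen for its fold, was set beside the other lipid phosphate phosphatases in the same way. Log2 fold changes of its tested relatives were -0.03 for Plpp1, -0.03 for Plpp2, 0.05 for Plpp5, -0.08 for Plpp6 and 0.22 for Plpp7. Their edgeR adjusted p-values were 0.69, 0.812, 0.601, 0.599 and 0.226, and none was called under any of 15 alternatives. The Plpp3 share of the TPM of 7 relatives was 0.982% ± 0.112 in shCtrl and 10.6% ± 0.366 in shUSP8 (SD, n = 3 each). In shCtrl Plpp3 was below all its tested relatives in mean TPM. In shUSP8 it was above Plpp6 (5.19 TPM) and Plpp7 (5.73 TPM) and below Plpp1 (65.6 TPM), Plpp2 (24.5 TPM) and Plpp5 (23.8 TPM).

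Ptpn14 (chr1:189728268-189876695, plus strand) was a still smaller part of its family. It held 0.032% ± 0.0103 of the summed TPM of 17 non-receptor tyrosine phosphatases in shCtrl and 0.502% ± 0.0269 in shUSP8 (SD, n = 3 each). Its closest relative Ptpn21 was at 11 CPM and 12.6 CPM, with a log2 fold change of 0.20 (edgeR adjusted p = 0.0947). With scaling by library totals, Ptpn21 passed at 0.27 (edgeR adjusted p = 0.0269). Col5a3 (chr9:20770050-20815067, minus strand) was the main type V collagen gene here, since Col5a1 and Col5a2 had no more than 11 counts in any library. In the third shCtrl library, however, Col5a3 made up 68.3% of the summed TPM of the 3 chains, against 97.9% to 100.0% in shUSP8.

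**Figure D2:**
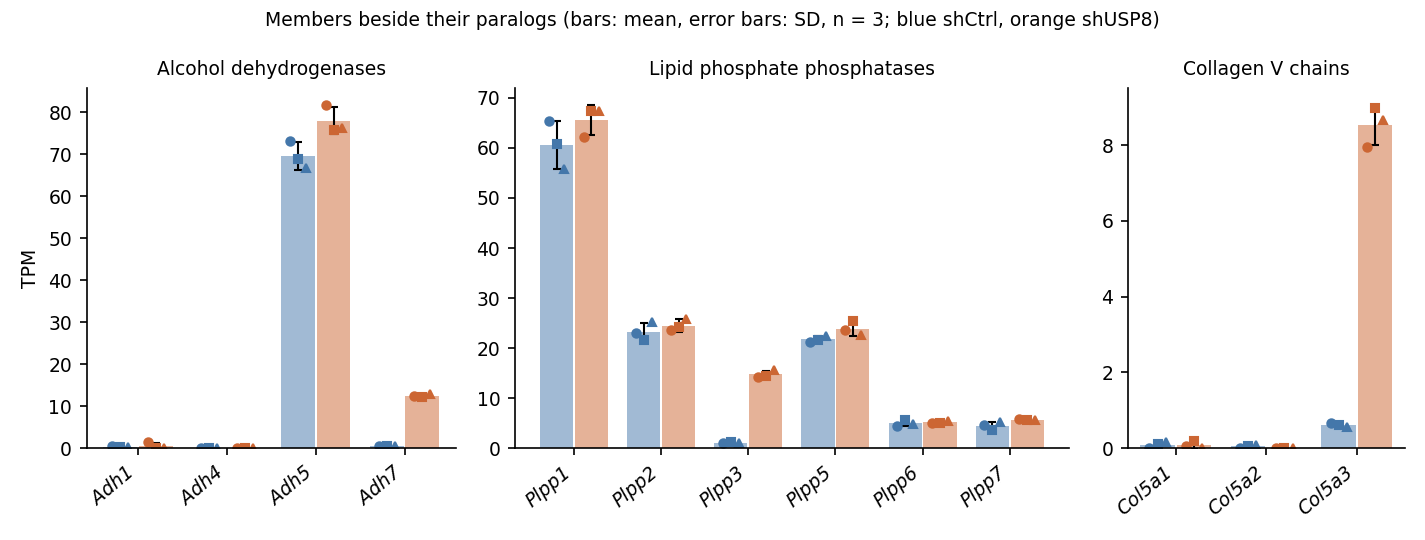
TPM of Adh7, Plpp3 and Col5a3 beside their relatives, with bars at the mean, error bars for SD, and 1 point per library (blue shCtrl, orange shUSP8, n = 3 each). Adh7 at 12.5 TPM and Plpp3 at 14.8 TPM in shUSP8 remain below Adh5 and Plpp1, while Col5a3 at 8.53 TPM is the highest of the type V collagen genes.

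Partner genes on lists written around the roles of the 6 genes were counted without the 6 themselves. Of 206 listed genes, 110 were tested, 30 (27.3%) were called higher and 16 (14.5%) lower by edgeR, with a median log2 fold change of 0.04. Over all tested genes the shares were 17.8% and 14.9%, and the median was -0.00. The interferon list, from which the 6 genes were kept apart, had 54 of 58 tested genes called higher, 1 lower and a median log2 fold change of 2.14. It was chosen, like the other lists, with earlier results of these data known, so its share is no independent contrast. The 7 role-based lists had medians from -0.05 to 0.12. The 6 genes had been chosen for their large folds and were left out of these lists. A gap between the medians and the 6 genes was therefore likely in advance, and no conclusion is drawn from it.

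The retinoid and alcohol dehydrogenase list around Adh7 had 15 tested genes, of which 4 were called higher and 0 lower, with a median log2 fold change of 0.03. The retinoid receptor gene Rxra averaged 11.3 ± 1.12 CPM in controls and 38.6 ± 3.22 CPM after knockdown (SD, n = 3 each). Its log2 fold change was 1.78 (SE 0.09, edgeR adjusted p = 1.87e-08). Dhrs9, a short-chain dehydrogenase that also oxidises retinol, rose from 28.8 to 58.1 CPM (log2 fold change 1.01, edgeR adjusted p = 7.86e-08). Aldh2, a mitochondrial aldehyde dehydrogenase, rose from 345 to 419 CPM (log2 fold change 0.28, edgeR adjusted p = 0.0016). Rarb, a retinoic acid receptor, went from 1.14 to 2.25 CPM (log2 fold change 0.98, edgeR adjusted p = 0.0132), a call lost without the second shCtrl library (0.0656) or the third shUSP8 library (0.0565).

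Of the histidine list around Hal (chr10:93488768-93519304, plus strand), 9 genes were tested, 2 were called higher and 0 lower, with a median log2 fold change of 0.12. Slc15a3, a lysosomal transporter of histidine and peptides, went from 6.08 to 36.7 CPM, a rise of 2.59 on the log2 scale (SE 0.10, edgeR adjusted p = 1.46e-09). Slc3a2, a subunit of amino acid exchangers, went from 168 to 225 CPM (log2 fold change 0.42, edgeR adjusted p = 0.0398). That call was lost without the second shCtrl library (0.117) and without the first (0.166), second (0.114) or the third (0.0967) shUSP8 library. The enzymes after HAL in histidine breakdown stayed near 0. Uroc1, urocanate hydratase, had 0, 0 and 1 counts in shCtrl and 2, 1 and 0 in shUSP8. Amdhd1, the next enzyme, had 0 counts in shCtrl and 2, 1 and 0 in shUSP8, and Ftcd, the last, had 3, 1 and 1 and then 5, 4 and 0. Hal was thus the only enzyme of the pathway that was counted in appreciable number in these libraries.

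Around Ptpn14, the Hippo list had 19 tested genes besides Ptpn14, with 5 called higher, 4 lower and a median log2 fold change of 0.08. Limd1, a scaffold that restrains the kinase LATS, rose from 86.6 to 113 CPM (log2 fold change 0.38, edgeR adjusted p = 8.78e-05). Nf2, an upstream activator of the pathway, fell from 278 to 233 CPM (log2 fold change -0.26, edgeR adjusted p = 0.00329), a call lost on both TPM scales (-0.17, limma adjusted p = 0.17). Ajuba, a relative of Limd1, went from 1.90 to 3.05 CPM (log2 fold change 0.68, edgeR adjusted p = 0.015), and Axl, a receptor kinase, from 0.509 to 1.02 CPM (0.99, edgeR adjusted p = 0.0203). Both are low in counts and lost their calls without the first shCtrl library (0.0545 for Ajuba and 0.0887 for Axl). Ajuba also lost it without the second shCtrl library (0.075), and Axl without the third shCtrl library (0.0611) or the second (0.0545) or the third (0.0591) shUSP8 library. Ajuba was further lost with DESeq2 (adjusted p = 0.0683) and with effective-length offsets in edgeR (adjusted p = 0.0562). Axl was lost with DESeq2 (adjusted p = 0.145), with offsets in edgeR (log2 fold change 0.35, adjusted p = 0.616) and on both TPM scales in limma (0.09 and 0.33, adjusted p = 0.558 and 0.494). Yap1, which encodes the co-activator that PTPN14 binds, had 0 counts in shCtrl and 6, 0 and 0 in shUSP8. Its relative Wwtr1 had 1, 2 and 3 counts and then 0, 1 and 4. Ptpn14 was therefore higher after knockdown, though still low in TPM, in libraries in which its best known partner was close to absent.

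Of 14 tested non-receptor tyrosine phosphatases other than Ptpn14, 3 were called higher and 2 lower, with a median log2 fold change of 0.05. Ptpn22, a phosphatase of immune receptor signalling, fell from 291 to 199 CPM (log2 fold change -0.55, edgeR adjusted p = 2.62e-06). Ptpn7, a MAP kinase phosphatase, rose from 66.1 to 84.0 CPM (0.35 on the log2 scale, edgeR adjusted p = 2.8e-04). Ptpn3, which like Ptpn14 carries a FERM domain, went from 0.289 to 1.04 CPM (1.82, SE 0.33, edgeR adjusted p = 0.00118), a call lost on log2(TPM + 1) (limma adjusted p = 0.0785). Ptpn23, a phosphatase-like protein of endosomal sorting, went from 93.0 to 107 CPM (0.20, edgeR adjusted p = 0.0142). Its call was lost without the first (0.0513) or the third (0.0642) shCtrl library or the third shUSP8 library (0.0551).

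The protein C and coagulation list around Procr (chr2:155751117-155755471, plus strand) had 14 tested genes, with 6 called higher, 3 lower and a median log2 fold change of 0.03. Thbd, thrombomodulin, which acts beside the receptor in protein C activation, went from 2.96 to 8.09 CPM, a rise of 1.45 on the log2 scale (SE 0.13, edgeR adjusted p = 3.22e-06). F10, coagulation factor X, went from 4.60 to 18.7 CPM, a rise of 2.02 (SE 0.11, edgeR adjusted p = 3.4e-08). Plaur, the urokinase receptor, rose from 43.7 to 80.4 CPM (0.88, edgeR adjusted p = 8.84e-07). F3, tissue factor, went the other way, from 7.62 to 4.05 CPM (-0.91, edgeR adjusted p = 1.9e-04). The ligand gene Proc had 1, 1 and 0 counts in shCtrl and 6, 0 and 0 in shUSP8, and the protease-activated receptor genes F2r, F2rl1 and F2rl2 were at 0. Receptor and thrombomodulin transcripts were thus both higher in libraries with almost no transcript of protein C.

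Beside Plpp3, the lysophospholipid and sphingosine phosphate list had 23 tested genes, with 6 called higher, 4 lower and a median log2 fold change of 0.01. Enpp2, autotaxin, which makes the lysophosphatidic acid that PLPP3 breaks down, averaged 0.545 ± 0.267 CPM in controls and 5.24 ± 0.484 CPM after knockdown (SD, n = 3 each). Its log2 fold change was 3.25 (SE 0.27, edgeR adjusted p = 1.7e-06). Of the receptors, S1pr1 rose from 1.74 to 5.15 CPM (1.57, edgeR adjusted p = 4.82e-05) and Lpar1 from 2.76 to 7.09 CPM (1.35, edgeR adjusted p = 4.85e-05). Lpar5 was also called higher (0.37, edgeR adjusted p = 0.019), a call lost without the second (0.0726) or the third (0.0611) shCtrl or the third shUSP8 library (0.0753) and with DESeq2 (0.112). S1pr2, the most abundant receptor of the list at 98.4 and 105 CPM, was called only with library totals (0.17, edgeR adjusted p = 0.0216, against 0.09 and 0.19 as reported). Not called were Lpar2 (-0.15, 0.689) and Lpar6 (0.14, 0.412). Asah2, a ceramidase, rose from 5.24 to 9.38 CPM (0.84, edgeR adjusted p = 1.15e-04). The 4 genes called lower were Sphk1 (-0.36, edgeR adjusted p = 0.00727), Sgpl1 (-0.26, 0.00253), Lpin1 (-0.56, 1.28e-04) and Lpin2 (-0.30, 0.0144). Apart from Lpin1, these calls were lost on log2(TPM + 1) (limma adjusted p = 0.0502, 0.159 and 0.449), and that of Lpin2 also without the first shCtrl (0.0635) or the third shUSP8 library (0.077). The list thus held changes in both directions around a median near 0.

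Collagen genes and genes of collagen maturation around Col5a3 numbered 17 tested, with 4 called higher, 3 lower and a median log2 fold change of -0.05. Col18a1, a basement membrane collagen, rose from 14.2 to 31.9 CPM (log2 fold change 1.17, edgeR adjusted p = 5.63e-08), and Col15a1, a close relative, from 21.6 to 31.9 CPM (0.56, edgeR adjusted p = 5.02e-05). Plod3, a lysyl hydroxylase, fell from 289 to 237 CPM (-0.28, edgeR adjusted p = 7.54e-04), and Loxl3, a lysyl oxidase relative, from 19.5 to 14.5 CPM (-0.43, edgeR adjusted p = 0.0013). Both falls lost their call on the TPM scales (limma adjusted p = 0.112 for Plod3 and 0.36 for Loxl3), and Loxl3 also with effective-length offsets (edgeR adjusted p = 0.0625). Unlike Col5a3, neither Col18a1 nor Col15a1 encodes a fibrillar chain.

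**Figure D3:**
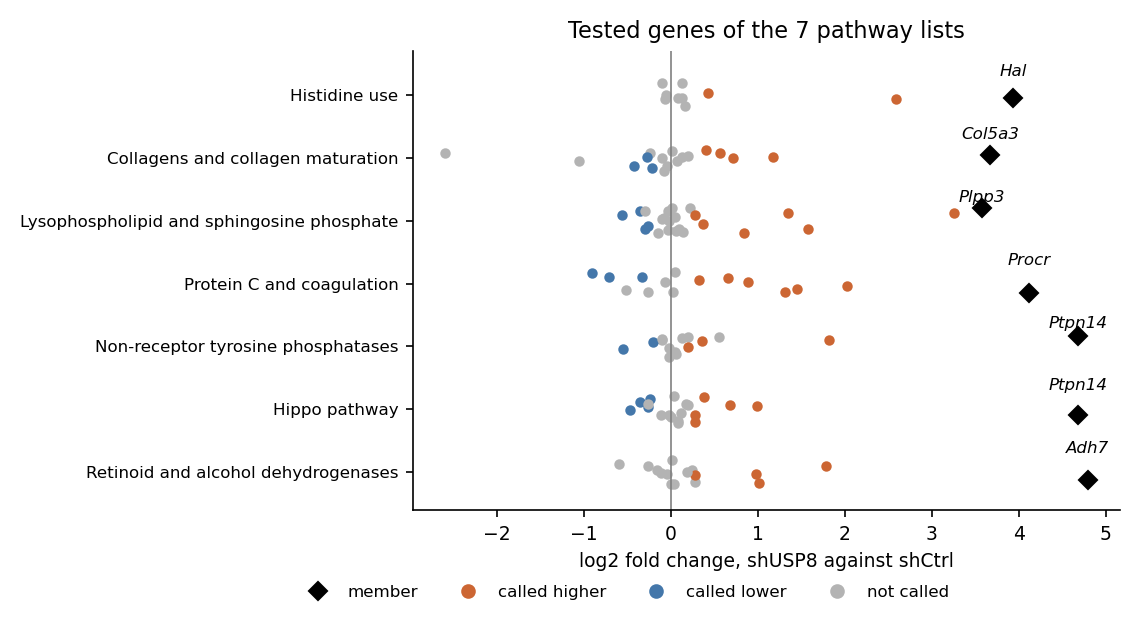
Log2 fold changes of the tested genes on 7 role-based lists, 1 point per gene, with the 6 genes as black diamonds. Most partners lie near 0, and the nearest to its leading gene is Enpp2 at 3.25 beside Plpp3 at 3.57.

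The nearest tested genes along the chromosome, 5 on each side of each gene, were examined as neighbours of the 6 loci. Of these 60 genes, 9 (15%) were called higher and 2 (3.33%) lower by edgeR, and 0 differed by more than 2-fold. Their median log2 fold change was 0.04, and the background shares of calls were 17.8% and 14.9%. Smyd2, 3.80 kb from Ptpn14, had a log2 fold change of 0.14 (edgeR adjusted p = 0.0525), and Lta4h, 3.89 kb from Hal, also 0.14 (edgeR adjusted p = 0.13). Around Procr 4 of 10 neighbours were called higher: Edem2, 21.6 kb away, at 0.35 (edgeR adjusted p = 5.46e-04), Acss2 at 0.53 (6.47e-05), Gss at 0.30 (0.00185) and Eif6 at 0.17 (0.02). Other higher calls included Kctd3 (0.45, 3.63e-04) and Rps6kc1 (0.42, 4.02e-04) beside Ptpn14, Dapp1 (0.28, 0.0291) beside Adh7 and Cdk17 (0.25, 0.0164) beside Hal. Dnmt1 (-0.19, 0.0159) beside Col5a3 and Fgd6 (-0.20, 0.0354) beside Hal were lower. Dapp1, Eif6, Cdk17, Dnmt1 and Fgd6 lost their calls under several alternatives, including without the first shCtrl library (0.109, 0.0614, 0.075, 0.0685 and 0.0955). At none of the 6 loci were the examined neighbours strongly higher as a group. Those of Plpp3 lay 1080 to 2040 kb away, so nothing nearer to it was examined, and those of Ptpn14 lay up to 2490 kb away.

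**Figure D4:**
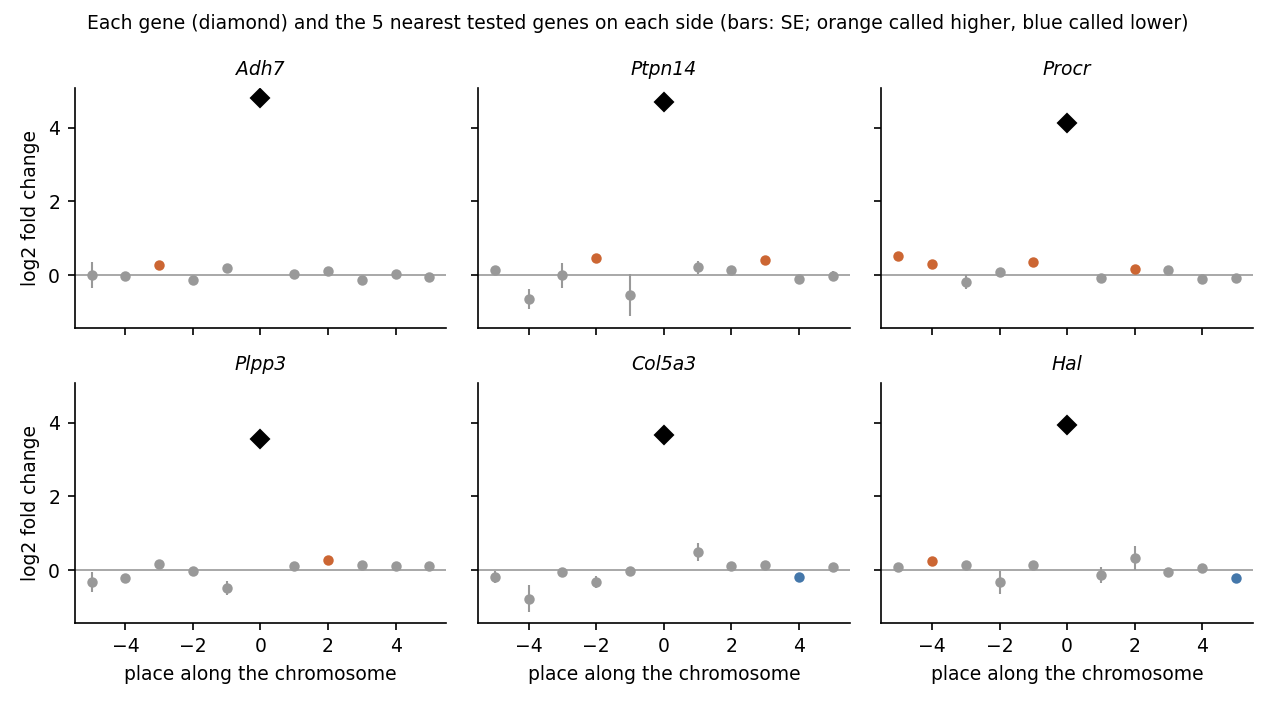
Log2 fold changes of the 6 genes and of the 5 nearest tested genes on each side, by place in gene order, with SE as bars on the neighbours (orange called higher, blue called lower, grey not called). The 60 neighbours all lie within 2-fold of 0, while the 6 genes lie from 3.57 to 4.79.

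The 6 genes are a selection from a larger set with a like pattern. With a mean at or under 3.72 CPM in shCtrl, the highest of the 6, and a fold over 10, the tables held 61 genes, of which 16 were on the interferon list, 7 had clone or predicted names, 6 were the genes described here and 32 were others. Of these 32, 2 reached the 23.7 CPM of Ptpn14 in shUSP8. They were Clec4n, a C-type lectin receptor of macrophages, at 3.03 and 54.7 CPM, and Lgals9, a galectin, at 2.27 and 27.3 CPM. With the stricter limit of a mean under 1 CPM in shCtrl, 48 genes had a fold over 10, and Ptpn14 was the only one of the 6 among them. In the other direction, 1 tested gene was more than 10-fold lower.

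Other genes of this stricter set included Slpi, a secreted protease inhibitor, at 0.494 and 17.8 CPM, Treml4, a myeloid receptor, at 0.833 and 17.1 CPM, and Gsta3, a glutathione transferase, at 0.306 and 10.8 CPM. Gsta2, a close relative of Gsta3 with which reads may be shared, had 0, 4 and 1 counts in shCtrl and 229, 192 and 201 in shUSP8. Glis3, a zinc finger factor, had 0, 0 and 1 counts and then 114, 122 and 124, and Tarm1, a myeloid receptor, 0, 1 and 2 counts and then 98, 112 and 124. Pdlim4 was at 0.273 and 5.79 CPM and Hsd17b2, a steroid dehydrogenase, at 0.222 and 5.08 CPM. Il1f9, an interleukin of the IL-1 family, had 3, 2 and 0 counts and then 108, 82 and 85. In CPM, these genes reached lower levels after knockdown than any of the 6. At the 10-fold limit, Sorl1 (10.1-fold), Ifit1 and Serpinb1b (both 10.3-fold) lay just inside, and Gbp3 (9.94-fold), Dnmt3l (9.92-fold) and Aox1 (9.80-fold) just outside. Ifit1 and Gbp3 are on the interferon list.

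By profile over the 6 libraries, the genes closest to the mean of the 6 were named by Euclidean distance of centred log2 CPM with a prior count of 2, which shrinks the contrast of genes near 0 counts in shCtrl. Acod1, which makes itaconate in activated macrophages, was nearest at a distance of 0.25, with 5.31 CPM in shCtrl and 80.8 CPM in shUSP8. Clec4n followed at 0.35 and Mmp12, the macrophage elastase, at 0.46, with 5.32 and 106 CPM. Gm34425, a predicted gene, lay at 0.50 and Nqo1, a quinone reductase, at 0.52, with 1, 0 and 1 counts in shCtrl and 45, 41 and 53 in shUSP8. Fitted log2 fold changes were 4.81 for Gm34425, which had 4, 4 and 5 counts in shCtrl, and 5.81 for Nqo1. Both were larger than that of any of the 6 genes, so the closeness of Gm34425 and Nqo1 depends on that prior count. The 6 genes themselves lay at 0.37 for Hal, 0.53 for Procr, 0.57 for Col5a3, 0.73 for Plpp3, 0.75 for Ptpn14 and 1.02 for Adh7. Several genes outside the set were thus closer to its mean profile than most of its own members.

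**Figure D5:**
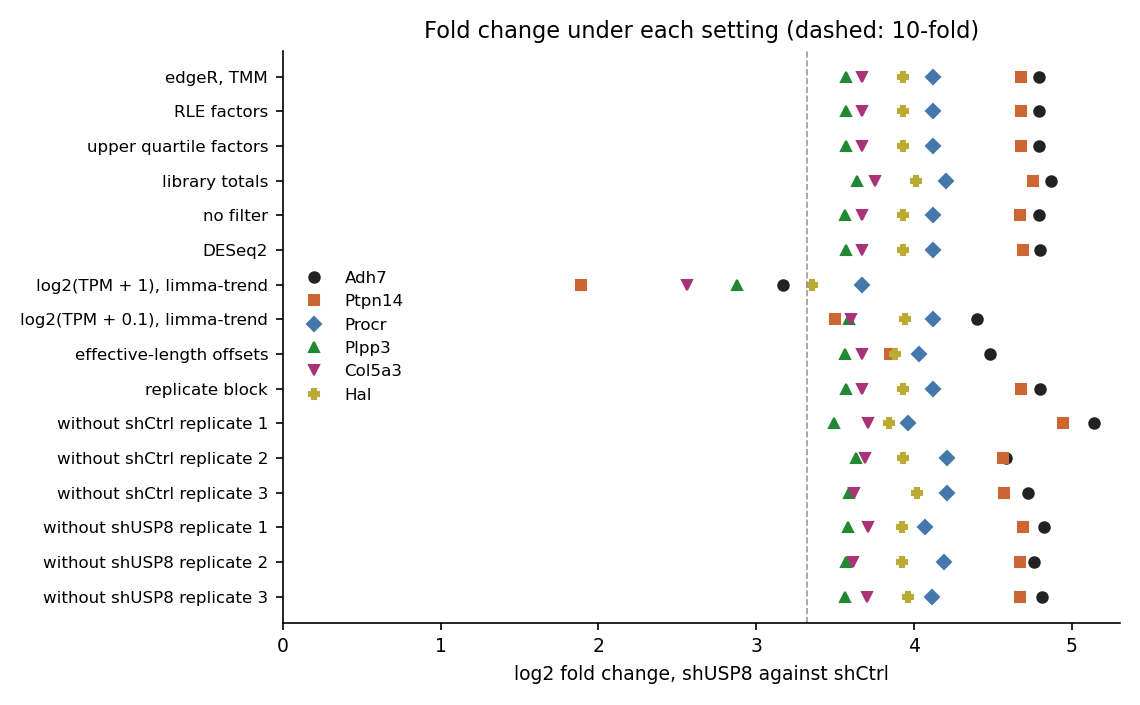
Log2 fold change of each of the 6 genes under each of 15 alternatives, with the value as reported in the top row and a dashed line at 10-fold. All values lie above 0, from 1.89 for Ptpn14 on log2(TPM + 1) to 5.14 for Adh7 without the first shCtrl library.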

How the data were processed

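Total RNA of 6 libraries was sequenced in read pairs of 150 bp on a DNBSEQ instrument, per the labels' protocols. The authors deposited a table of expected counts and a table of TPM for 55291 gene symbols. Expected counts are estimates of fragments per gene, and TPM are those deposited estimates divided by effective length and scaled to 1 sum per library. RSEM, DESeq2 1.28.1 and mm10 stand in the submitters' processing notes with no role for each. The aligner and the release of the annotation are not given in the sources used here.

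Columns named WT, with numbers 1 to 3, were assigned to shCtrl by the genotype label and the number in the title. KO matches no label and was taken as shUSP8, the only other genotype. Usp8 counts check the groups, not the numbers. There were 0 columns of other samples.

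Of the expected counts, 7.16% were not whole, so all were rounded. Genes were kept by filterByExpr at a minimum count of 10 and a minimum total of 15. The robust quasi-likelihood F test of edgeR 4.0.16, run in R 4.3.3 on TMM-scaled libraries, was fitted to all kept genes at once, and p-values were adjusted over them by Benjamini-Hochberg. A gene was called at an adjusted p under 0.05. SE is the absolute log2 fold change over the square root of F and tends to be too small where large changes rest on few counts. CPM use TMM factors. Positions came from GENCODE M21 (140751 of 142604 transcripts found) and promoter windows from RefSeq. Mean fragment length was fitted from expected count over TPM in 583 genes with a single transcript. A gene's assigned transcript length adds that fragment length to its effective length, so both are estimates.

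The 6 genes and all lists were chosen with earlier results of these data known. Genes named are Usp8, the 6, relatives, up to 4 called genes per list by smallest p, called neighbours, the 5 nearest profiles, up to 10 other genes under 1 CPM in shCtrl and over 10-fold, and genes at the 10-fold limit. A few genes named by this rule are left out of the text. Clec4n and Lgals9 as the 2 exceptions by level, F3, Lpar5, S1pr2, Lpar2, Lpar6, the 4 lower genes of the Plpp3 list, single markers and genes near 0 counts were named after their values were seen. Alternatives were RLE, upper quartile and library-total scaling, no filter, DESeq2 1.42.0, limma-trend (limma 3.58.1) with a pseudocount of 1 or 0.1 on log2 TPM, effective-length offsets, fits with each library left out, and a replicate block. The pipeline was tested on simulated data.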

Additional observations from a re-analysis of the deposited data

How the results depend on the processing

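All 6 genes kept their direction under 15 alternatives, which their choice on this contrast made likely in advance. Log2 fold changes with 1 library left out were 4.58 to 5.14 for Adh7, 4.56 to 4.94 for Ptpn14, 3.96 to 4.21 for Procr, 3.49 to 3.63 for Plpp3, 3.61 to 3.71 for Col5a3 and 3.84 to 4.02 for Hal. The pseudocount of log2(TPM + 1) shrinks low genes by construction, to 3.17, 1.89, 3.67, 2.88, 2.56 and 3.35 in the same order. On that scale Adh7, Ptpn14, Plpp3 and Col5a3 lay under the 10-fold limit. On log2(TPM + 0.1), Ptpn14 was at 3.50, and with effective-length offsets at 3.85.

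Partner genes called lower numbered 16 as reported, 10 with library totals, 4 on log2(TPM + 1) and 5 on log2(TPM + 0.1). Neighbours called numbered 11 as reported, 19 with library totals and 7 to 15 with 1 library left out, the lowest count being without the first or second shCtrl or the third shUSP8 library. The cause was not tested. These scales moved the median log2 fold change of all genes to 0.07 (library totals), 0.11 and 0.13, and the share of calls that were higher from 54.4% to 72.6%, 82.4% and 82.7%. Of 75 called genes named besides the 6, 53 kept their call under every alternative run. With a replicate block, 3711 genes were called in place of 4077, 29 partner genes higher and 14 lower, and 11 neighbours. Deviations of equally numbered libraries correlated at -0.00733, 0.0781 and -0.0542, so numbers were not taken as pairs. Counts of 15 to 81 in shCtrl limit the precision of the folds.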
